A study of Mus musculus with 4 samples.

Results

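The genes described here are the 10 members of the MYC, MAX and MXD network and of Miz-1 that were chosen by name: Myc, Mycn, Mycl, Max, Mnt, Mxd1, Mxd3, Mxd4, Mxi1 and Zbtb17, the gene of Miz-1. They are 10 of 18193 genes named on the array and are read by 24 of its 45101 probe sets, groups of short probes that report 1 transcript region each. The samples were cultures of melan-a, an immortal line of mouse melanocytes, in a derivative that the labels call Hmhi. There were 4 arrays, 1 per condition. They were Hmhi-MYC-TA cells with EGF, the culture labelled Hmhi-Miz1 kd with EGF, Hmhi cells with EGF, and Hmhi cells starved without it. All cultures spent 14 days in medium with dialyzed serum and antibiotics, and EGF was given at 100 ng/ml. Before that the cells were grown with TPA and cholera toxin, per the labels. What the names Hmhi and MYC-TA stand for, and whether a line is a clone, is not given in the labels, which call the knockdown construct pS-Miz1. The question in the title is how Myc and Miz-1 act on senescence of melanocytes through cystathionase.

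MYC, N-MYC and L-MYC are transcription factors that bind E-box DNA as dimers with MAX and raise the output of genes for growth, ribosome production and cell division. MXD proteins, MXI1 and MNT compete for MAX and for the same sites, and bring in SIN3 and histone deacetylase complexes that repress transcription. Miz-1 is a zinc finger factor of the BTB/POZ class. It activates cell cycle inhibitor genes on its own, and becomes a repressor when MYC binds it. In human melanoma cells MYC is known to hold back senescence.

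The promoters of 4 members are shown because of the probe set differences described below. Mycn has the largest difference of all members, on 1 of its 3 sets and not on the others. Max, Mxi1 and Mxd4 were the members farthest below Hmhi starved in Hmhi EGF on their brightest set. Mnt, Mxd1, Myc and Zbtb17 were lower there too, by less. Each run is the 250 bases before an annotated transcript start in RefSeq, on build GRCm38.p6, written 5′ to 3′ on the gene's strand. Capitals mark the E-box CACGTG, the core site of MYC and MAX dimers, and TTTGGCGC, a site of the E2F family, searched on both strands. These motifs share no overlapping match in the windows shown.
Mycn, chr12:12941837-12942086, minus strand: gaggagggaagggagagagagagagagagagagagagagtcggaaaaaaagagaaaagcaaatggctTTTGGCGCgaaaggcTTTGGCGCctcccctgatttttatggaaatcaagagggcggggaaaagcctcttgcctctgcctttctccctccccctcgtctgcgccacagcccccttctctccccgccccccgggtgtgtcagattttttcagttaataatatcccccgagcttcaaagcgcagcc
Max, chr12:76962249-76962498, minus strand: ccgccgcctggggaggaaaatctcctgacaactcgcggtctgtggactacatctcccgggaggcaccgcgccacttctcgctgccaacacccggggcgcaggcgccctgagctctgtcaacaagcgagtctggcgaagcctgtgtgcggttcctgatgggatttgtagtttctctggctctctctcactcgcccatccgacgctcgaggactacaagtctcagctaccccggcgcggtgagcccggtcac
Mxi1, chr19:53310256-53310505, plus strand: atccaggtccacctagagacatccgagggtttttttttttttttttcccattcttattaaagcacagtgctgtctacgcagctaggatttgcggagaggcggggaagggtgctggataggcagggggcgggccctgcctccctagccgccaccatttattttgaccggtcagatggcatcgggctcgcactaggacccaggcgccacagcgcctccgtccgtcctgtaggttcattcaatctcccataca
Mxd4, chr5:34187711-34187960, minus strand: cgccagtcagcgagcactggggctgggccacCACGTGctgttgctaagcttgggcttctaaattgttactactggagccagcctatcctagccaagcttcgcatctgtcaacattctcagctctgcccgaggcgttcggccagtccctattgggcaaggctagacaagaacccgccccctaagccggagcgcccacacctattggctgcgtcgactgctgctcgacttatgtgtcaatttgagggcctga

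Of the 9 members with a window in RefSeq, Mxd4 and Mnt held CACGTG, at 219 and 123 bases before the start. Over all 32851 such windows 6.02% held it. TTTGGCGC stood at 183 and 168 bases before the Mycn start and in no other member's window. Of all windows 0.417% held this motif, and 2 held it more than once, of which the Mycn window is 1. The Mxi1 window shown belongs to the first of 3 annotated starts, and neither motif was found at the other 2. These matches are descriptions of the letters and not evidence of binding.

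All levels below are log2 signals, on which a difference of 1 is 2-fold. The median of all probe sets was 6.66 on every array, and a level below it is dim. With 1 array per condition there is no replicate spread, so each difference is between 2 arrays and none was tested. The only spread that can be given is the SD between probe sets of 1 gene within a comparison, called the technical SD here. This SD takes in disagreement between sets of a gene, such as that of Mycn below, and leaves out differences between cultures. It was 0.32 for Hmhi EGF minus Hmhi starved, 0.22 for the array labelled Hmhi-Miz1 kd minus Hmhi EGF, 0.25 for Hmhi-MYC-TA minus Hmhi EGF and 0.41 for Hmhi-MYC-TA minus the array labelled Hmhi-Miz1 kd. Genes were compared only where at least the brighter of both arrays reached its median. Of the genes compared, 53.1%, 44.6%, 46.9% and 44.7% differed by more than the technical SD, in the order of comparisons above. Of the members compared, 5 of 9, 3 of 9, 5 of 10 and 6 of 10 did. Mycl, counted among them in the last 2 comparisons, entered these only through its higher level in Hmhi-MYC-TA. A difference beyond the technical SD is thus common and does not mark an unusual gene. Of the 24 member sets, 15 were at or above the median on all 4 arrays and 5 on none. Of 10 melanocyte markers 7 or 8 were at or above the median on each array: Tyrp1 read between 13.05 and 14.09 over the arrays and Sox10 between 12.96 and 13.37, while Tyr, at 4.62 to 5.63, and Ednrb were dim on every array. Markers of other cell types were not all dim. Of 4 leukocyte markers 2 or 3 reached the median on each array: Lyz2 read 10.74 to 12.37 and Cd3e 6.96 to 7.38, Cd68 passed on 3 arrays, and Ptprc was dim throughout. Of 5 keratinocyte markers Krt5 and Krt10 passed on every array, and of 4 endothelial markers Kdr passed on 3 and Pecam1, Cdh5 and Tek on 0. Fewer cells of a type and less RNA per cell cannot be told apart in such bulk samples.

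**Figure D1:**
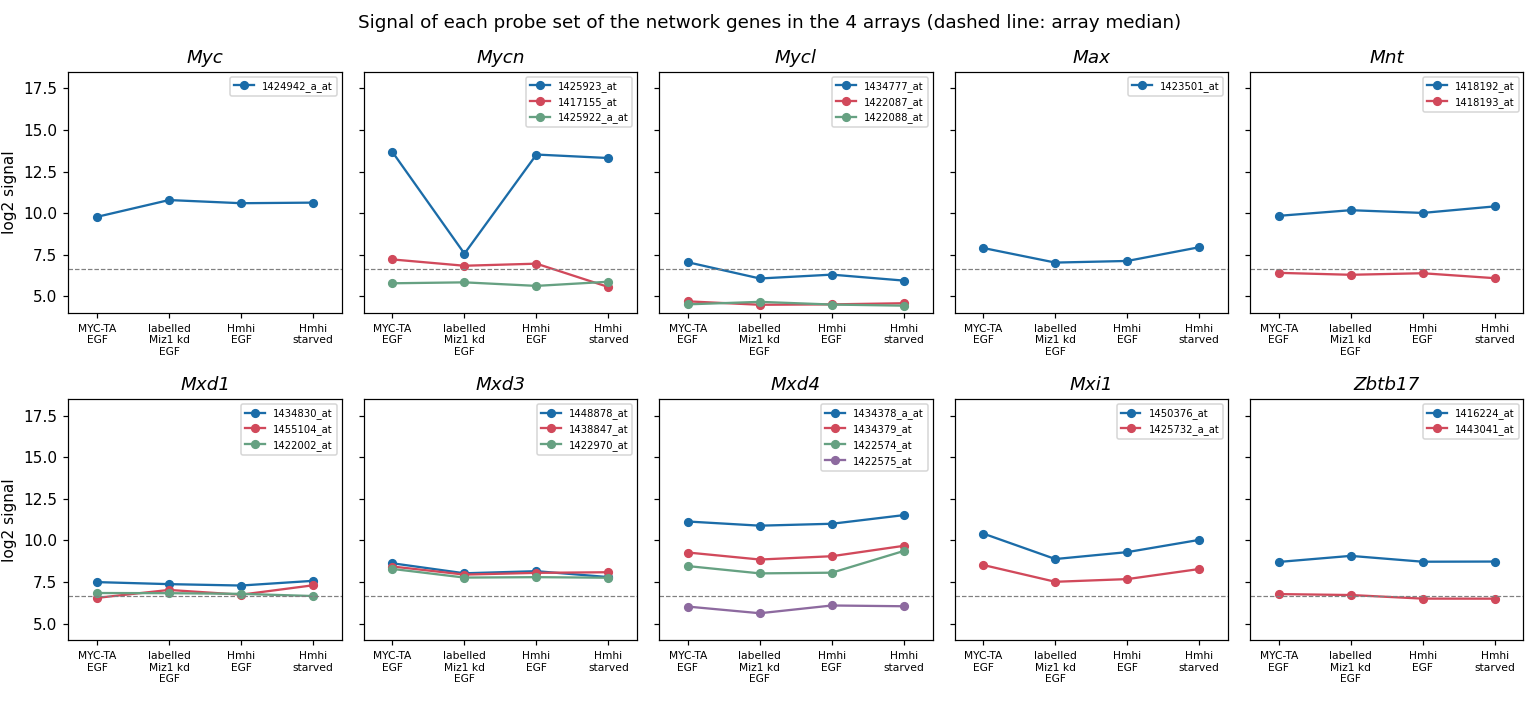
Log2 signal (vertical axis) of every probe set of the 10 members in the 4 arrays, 1 panel per gene and 1 line per probe set, with the array median of 6.66 dashed. The brightest Mycn set is low only in the array labelled Hmhi-Miz1 kd, at 7.57, and the other Mycn sets stay at or below 7.22 on all 4 arrays.

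Zbtb17, the target of the knockdown, was not lower in the array that carries its label. Its brighter set, 1416224_at, read 8.71 in Hmhi-MYC-TA, 9.08 in the array labelled Hmhi-Miz1 kd, 8.72 in Hmhi EGF and 8.73 in Hmhi starved. The dimmer set, 1443041_at, read 6.78, 6.72, 6.505 and 6.502 in that order of arrays. In both sets the array labelled Hmhi-Miz1 kd was thus above Hmhi EGF, by 0.35 and 0.22. The first of these exceeds the technical SD of 0.22, and 75.1% of all genes differed by less. The Zbtb17 level goes against the label, so every direction for this array is that of the array as labelled. Miz-1 protein was not measured.

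Myc, read by 1 set, was lower in Hmhi-MYC-TA than in the other arrays. It read 9.78 in Hmhi-MYC-TA, 10.79 in the array labelled Hmhi-Miz1 kd, 10.60 in Hmhi EGF and 10.64 in Hmhi starved. The last 3 levels lie within 0.19 of each other. Hmhi-MYC-TA was lower by a log2 difference of -0.82 against Hmhi EGF, which is 1.77-fold, and of 11534 genes 94.2% differed by less in size. Against the array labelled Hmhi-Miz1 kd the difference was -1.01. Hmhi EGF and Hmhi starved differed by -0.035, well inside the technical SD. Whether this set also reads a transcript of the MYC-TA construct is not given in the sources used here.

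Mycn, the gene of N-MYC, gave conflicting readings from its 3 probe sets. The bright set, 1425923_at, read 13.68 in Hmhi-MYC-TA, 7.57 in the array labelled Hmhi-Miz1 kd, 13.53 in Hmhi EGF and 13.32 in Hmhi starved. In those 3 bright arrays it lay above at least 99.4% of all non-control sets, and in the array labelled Hmhi-Miz1 kd above 61.8%. The difference there was -5.96 against Hmhi EGF, 62.2-fold lower, and of 45037 non-control sets 1 other, which the annotation used here leaves unnamed, was farther below. The remaining Mycn sets did not share it. Set 1417155_at read 7.22 in Hmhi-MYC-TA, 6.84 in the array labelled Hmhi-Miz1 kd, 6.97 in Hmhi EGF and 5.56 in Hmhi starved. Set 1425922_a_at was dim everywhere, at 5.79, 5.85, 5.63 and 5.88 in the same order. For the array labelled Hmhi-Miz1 kd minus Hmhi EGF these sets gave -0.13 and 0.21, within the technical SD.

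The 3 Mycn sets therefore spanned 6.17 log2 units in that comparison. Of 9010 genes with several sets 0 had a wider span, and the median span was 0.26. The span was 6.17 for Hmhi-MYC-TA minus the array labelled Hmhi-Miz1 kd as well, again with 0 genes wider. Between Hmhi-MYC-TA and Hmhi EGF the Mycn sets agreed, at 0.15, 0.25 and 0.16. Between Hmhi EGF and Hmhi starved they gave 0.21, 1.40 and -0.25, so the moderate set alone was over 2-fold higher with EGF, and 200 of the 9010 genes had a wider span. The 62.2-fold difference is therefore that of a probe set, and the level of Mycn transcript is uncertain in all 4 arrays. Why the sets differ was not tested.

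**Figure D2:**
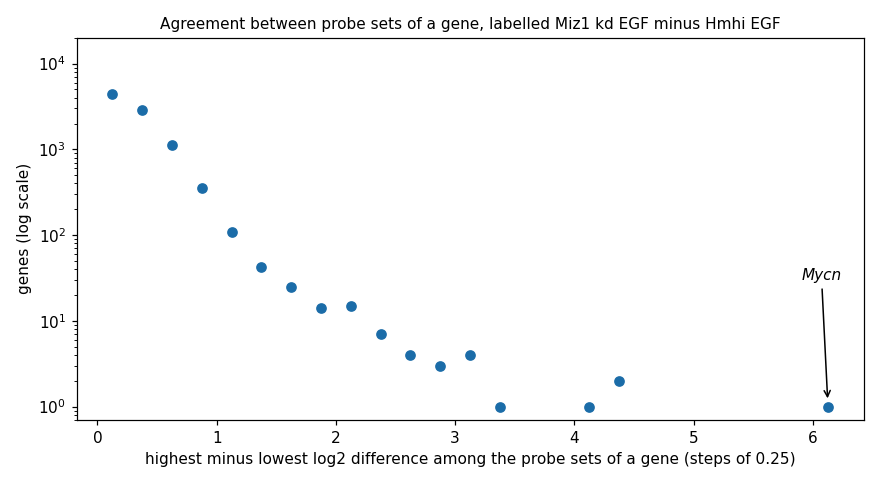
Number of genes (vertical, log scale) by the span between the highest and the lowest log2 difference among a gene's probe sets (horizontal, steps of 0.25), for the array labelled Hmhi-Miz1 kd minus Hmhi EGF. Each point is a step that holds at least 1 of the 9010 genes with several sets, and Mycn, at 6.17, stands alone at the right.

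Mycl, the gene of L-MYC, was dim. Its brightest set, 1434777_at, read 7.05 in Hmhi-MYC-TA, 6.08 in the array labelled Hmhi-Miz1 kd, 6.31 in Hmhi EGF and 5.95 in Hmhi starved. Only the Hmhi-MYC-TA value was above the array median, so Mycl entered comparisons through that array alone. It was 0.74 above Hmhi EGF. The other sets read between 4.44 and 4.70 and differed from Hmhi EGF by 0.18 and 0.01 in Hmhi-MYC-TA, so that difference too rests on 1 set.

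Max, the shared partner of the MYC and MXD proteins, split the arrays into pairs. Its 1 set read 7.91 in Hmhi-MYC-TA, 7.03 in the array labelled Hmhi-Miz1 kd, 7.13 in Hmhi EGF and 7.96 in Hmhi starved. Hmhi EGF was below Hmhi starved by -0.83 and Hmhi-MYC-TA above Hmhi EGF by 0.78, while the array labelled Hmhi-Miz1 kd was within 0.10 of Hmhi EGF. These larger values exceed the technical SD, and 81.6% and 93.2% of genes differed by less in their comparisons.

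Mxi1, a repressive MAX partner of the MXD group, had the clearest pattern among the antagonists, and both of its sets showed it. Set 1450376_at read 10.42 in Hmhi-MYC-TA, 8.89 in the array labelled Hmhi-Miz1 kd, 9.30 in Hmhi EGF and 10.04 in Hmhi starved. Set 1425732_a_at read 8.53, 7.52, 7.68 and 8.29 in that order. Each set thus ranked the arrays the same way, Hmhi-MYC-TA highest and the array labelled Hmhi-Miz1 kd lowest. Hmhi-MYC-TA was above Hmhi EGF by 1.12 and 0.85, and above the array labelled Hmhi-Miz1 kd by 1.53 and 1.01. Hmhi EGF was below Hmhi starved by -0.74 and -0.61. The array labelled Hmhi-Miz1 kd was below Hmhi EGF by -0.42 and -0.16, of which the second lies within the technical SD. For Hmhi-MYC-TA minus Hmhi EGF the brighter set's difference was larger in size than that of 97.9% of genes.

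Mxd4, another repressive MAX partner, which is also on the list of MYC and Miz-1 targets below, was highest in Hmhi starved. Its brightest set, 1434378_a_at, read 11.14 in Hmhi-MYC-TA, 10.89 in the array labelled Hmhi-Miz1 kd, 11.01 in Hmhi EGF and 11.53 in Hmhi starved. Sets 1434379_at and 1422574_at gave the same order of arrays. For Hmhi EGF minus Hmhi starved the 3 sets differed by -0.52, -0.63 and -1.31, all beyond the technical SD of 0.32. Of all genes 65.2% differed by less than the brightest set. The fourth set, 1422575_at, was dim in every array and differed by 0.05. Between the array labelled Hmhi-Miz1 kd and Hmhi EGF the 3 bright sets differed by -0.12, -0.20 and -0.04, each within the technical SD of 0.22.

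Mxd3, which is known to be expressed in dividing cells, was highest in Hmhi-MYC-TA. Its brightest set, 1448878_at, read 8.63 in Hmhi-MYC-TA, 8.03 in the array labelled Hmhi-Miz1 kd, 8.16 in Hmhi EGF and 7.80 in Hmhi starved. All 3 sets were above Hmhi EGF in Hmhi-MYC-TA, by 0.48, 0.38 and 0.49, and each value exceeds the technical SD of 0.25. For Hmhi EGF minus Hmhi starved the sets disagreed, at 0.36, -0.04 and 0.04.

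Mxd1 and Mnt showed little that their sets agreed on. Mxd1, linked to terminal differentiation in other tissues, read 7.50 in Hmhi-MYC-TA, 7.38 in the array labelled Hmhi-Miz1 kd, 7.29 in Hmhi EGF and 7.57 in Hmhi starved on set 1434830_at. Set 1455104_at differed more, at 6.55, 7.03, 6.74 and 7.31 in that order, and set 1422002_at stayed between 6.66 and 6.84. Mnt, a MAX partner that most tissues express, read 9.84 in Hmhi-MYC-TA, 10.18 in the array labelled Hmhi-Miz1 kd, 10.02 in Hmhi EGF and 10.41 in Hmhi starved on its bright set, 1418192_at. Its dim set, 1418193_at, was below the array median in all 4 arrays and gave the opposite sign for Hmhi EGF minus Hmhi starved, 0.30 against -0.39.

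**Figure D3:**
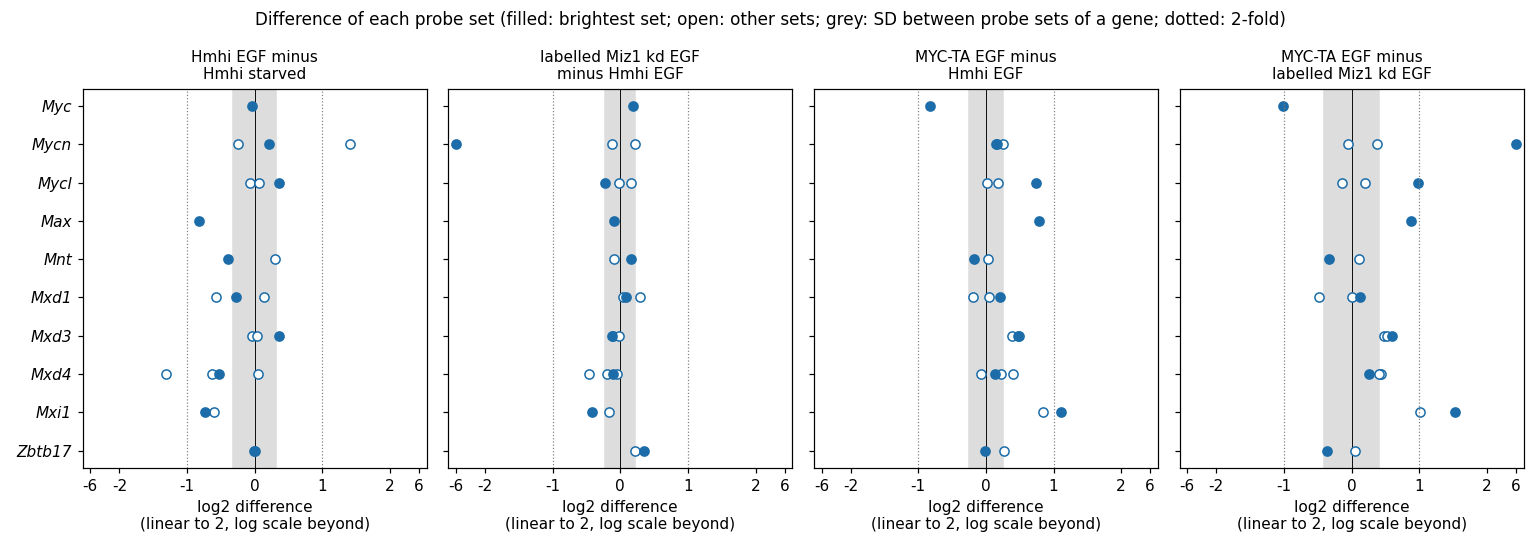
Log2 difference (horizontal axis, linear up to 2 and logarithmic beyond) of every member probe set in the 4 comparisons, with the brightest set of a gene filled, its other sets open, the technical SD as a grey band and 2-fold as dotted lines. Mycn shows a filled point near -6 and near 6 with open points close to 0, and both Mxi1 sets lie at or beyond 0.85 in the panels for Hmhi-MYC-TA.

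Counted with the brightest set of each gene, few members were 2-fold apart. For Hmhi EGF minus Hmhi starved 0 of the 9 members past the level filter were. Of all 11461 genes 12.9% were, 7.98% higher and 4.96% lower. Of the 9 members 7 were below 0, with a median of -0.28 beside 0.006 for all genes. For the array labelled Hmhi-Miz1 kd minus Hmhi EGF Mycn was lower, 1 of 9 members. Of 11394 genes 2.79% were apart, 0.29% higher and 2.5% lower. The member median there was -0.10, beside 0.018 for all genes. For Hmhi-MYC-TA minus Hmhi EGF Mxi1 was higher, 1 of 10 members. Of 11534 genes 2.95% were apart, 1.3% higher and 1.65% lower, and the member median was 0.18 beside 0.045. For Hmhi-MYC-TA minus the array labelled Hmhi-Miz1 kd Mycn and Mxi1 were higher and Myc was lower, 3 of 10 members. Of 11613 genes 11% were apart, 6.72% higher and 4.26% lower. Counted by probe set, 2 of 17 member sets past the filter were apart for Hmhi EGF minus Hmhi starved, against 12.2% of all sets. The count was 1 of 18 for the array labelled Hmhi-Miz1 kd minus Hmhi EGF, against 2.38%, and 1 of 19 for Hmhi-MYC-TA minus Hmhi EGF, against 3.7%. For Hmhi-MYC-TA minus the array labelled Hmhi-Miz1 kd it was 4 of 19, against 13.5%. With so few members these shares are descriptions. The 3 comparisons with Hmhi EGF share that array, so their values are not independent of each other.

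Some other values moved with the Mxi1 pattern, and in part with that of Max, which was highest in Hmhi starved. The summed level of the 6 fibroblast markers was 12.07 in Hmhi-MYC-TA, 10.31 in the array labelled Hmhi-Miz1 kd, 10.91 in Hmhi EGF and 11.73 in Hmhi starved, the same order of arrays as Mxi1. The sums of the melanocyte, leukocyte, keratinocyte and endothelial markers gave other orders. The fibroblast genes did not share 1 order of arrays. Dcn, the brightest of the 6 in every array, read 11.56, 9.45, 10.35 and 11.50 in that order, as the sum does. The sum was taken on unlogged signals, so Dcn weighs most in it. Col3a1 read 9.69, 6.25, 7.21 and 6.59, and was above the median in Hmhi-MYC-TA and Hmhi EGF. Pdgfra ran otherwise, at 7.93, 8.24, 8.21 and 7.40, with the array labelled Hmhi-Miz1 kd highest. Col1a2 reached the median only in Hmhi starved, at 6.97, and Col1a1 and Lum were dim in all 4 arrays. Whether fibroblasts were present, and any part of them in the Mxi1 and Max values, was not tested.

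For each member with a range of at least 1 over the arrays, the genes with the most similar profile were those with the smallest root mean square difference of centred levels over the 4 arrays, among 11805 genes. For Mxi1 these were Eef1e1, Gpt2, Cldn14, Il17b and Smim13, with differences of 0.054, 0.069, 0.072, 0.098 and 0.10. For Myc they were Il17rc, Pid1, Dmxl2, Smad7 and Nova1, at 0.023 to 0.050. For Mycl they were Tex30, Oip5, Snhg1, Tbl2 and C1qtnf6, at 0.026 to 0.042. For the bright Mycn set no profile came close: Masp1, Nfe2l3, Mfsd13a, Fads2 and Igfbp2 were the nearest, at 0.90 to 1.14. With 4 arrays and so many genes, near matches are found easily.

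Of the 6 genes beside Mycn on the chromosome, Cyria was over 2-fold lower in the array labelled Hmhi-Miz1 kd, at -2.17 against Hmhi EGF. Of all genes 2.5% were at least 2-fold lower there. Of the 3 nearest on either side of Mycn with a probe set, Ddx1 was at -0.26, Nbas at 0.079 and Smc6 at -0.37 in the array labelled Hmhi-Miz1 kd minus Hmhi EGF, and Vsnl1 and Lratd1 were dim. Cyria, unlike the bright Mycn set, was lowest in Hmhi starved. It read 9.14 in Hmhi-MYC-TA, 6.98 in the array labelled Hmhi-Miz1 kd, 9.15 in Hmhi EGF and 4.98 in Hmhi starved. Beside Myc, Lratd2 read 10.26 in Hmhi-MYC-TA, 11.23 in the array labelled Hmhi-Miz1 kd, 11.14 in Hmhi EGF and 8.97 in Hmhi starved, so that it was lower in Hmhi-MYC-TA than in Hmhi EGF by -0.89, close to the -0.82 of Myc. Trib1 and Asap1 were at -0.21 and -0.27 in that comparison, and Nsmce2 and Cyrib at 0.35 and 0.19. Beside Zbtb17, Epha2, Fam131c and Spen were above Hmhi EGF in the array labelled Hmhi-Miz1 kd by 0.44, 0.14 and 0.13, and the other 3 neighbours were dim.

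MLX, MLXIP and MGA belong to the wider network of MAX-like dimers. Mga, which encodes a large MAX partner with a T-box, read 8.45 in Hmhi-MYC-TA, 9.73 in the array labelled Hmhi-Miz1 kd, 9.33 in Hmhi EGF and 9.07 in Hmhi starved. It was lower in Hmhi-MYC-TA than in Hmhi EGF by -0.88, with 4 of its 5 sets below 0. Mlx read between 8.65 and 8.96 over the 4 arrays, Mlxip was higher by 0.44 in the array labelled Hmhi-Miz1 kd than in Hmhi EGF, and Mlxipl was dim.

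Of 26 listed cofactors and stability factors of MYC, 24 had a set and all 24 passed the level filter in every comparison. Huwe1, a ubiquitin ligase that acts on MYC and on Miz-1, read 10.75 in Hmhi-MYC-TA, 12.10 in the array labelled Hmhi-Miz1 kd, 11.61 in Hmhi EGF and 11.68 in Hmhi starved. All 5 of its sets were lower in Hmhi-MYC-TA than in Hmhi EGF, by -0.29 to -1.09, and all 5 were higher in the array labelled Hmhi-Miz1 kd, by 0.16 to 0.50. Trrap, a scaffold of histone acetyltransferase complexes that MYC recruits, read 10.29, 11.31, 10.91 and 10.29 in the same order. Huwe1 and Trrap were therefore both lowest or level with the lowest in Hmhi-MYC-TA and highest in the array labelled Hmhi-Miz1 kd.

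Aurka, a mitotic kinase that stabilizes N-MYC, read 10.18 in Hmhi-MYC-TA, 8.66 in the array labelled Hmhi-Miz1 kd, 9.39 in Hmhi EGF and 8.47 in Hmhi starved on its brighter set, while its dim set read between 4.48 and 4.65. Cip2a, which protects MYC from dephosphorylation, was the listed gene over 2-fold higher with EGF, above Hmhi starved by 1.38 on the brighter of its sets and 0.09 on the other. Of all genes 7.98% were at least 2-fold higher in that comparison. Skp2, a subunit of a ubiquitin ligase for MYC, was higher in Hmhi EGF in all 6 of its sets, by 0.29 to 0.89. The list medians were 0.19 for Hmhi EGF minus Hmhi starved, 0.16 for the array labelled Hmhi-Miz1 kd and 0.02 for Hmhi-MYC-TA, each minus Hmhi EGF, beside 0.006, 0.018 and 0.045 for all genes.

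The lists overlap, since Huwe1, Npm1 and Hcfc1 each stand on more than 1 of them. Of 9 listed partners of Miz-1, 8 had a set of their own and 7 passed the filter, with Gfi1 dim. Rpl23 is read by sets that also name other genes and was not used here. None of the 7 was 2-fold apart in a comparison with Hmhi EGF. Of all genes 12.9% were apart for Hmhi EGF minus Hmhi starved. The share was 2.79% for the array labelled Hmhi-Miz1 kd minus Hmhi EGF and 2.95% for Hmhi-MYC-TA minus Hmhi EGF. In the array labelled Hmhi-Miz1 kd 6 of the 7 were above Hmhi EGF, with a median of 0.19. Of all genes 52.3% were above it, with a median of 0.018. Besides Huwe1, Bcl6, a repressor that binds Miz-1, was higher there by 0.34, and Hcfc1, a chromatin factor, by 0.33. Npm1, a nucleolar protein that binds Miz-1, read 13.16 in Hmhi-MYC-TA, 12.68 in the array labelled Hmhi-Miz1 kd, 12.49 in Hmhi EGF and 12.88 in Hmhi starved.

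The genes known to be activated by MYC were mostly higher in Hmhi-MYC-TA than in Hmhi EGF, while Myc itself was lower. Of 31 listed, 30 passed the filter; of these 26 were above 0 and 3 at least 2-fold higher, with a median of 0.53. Of all 11534 genes 55.1% were above 0 and 1.3% at least 2-fold higher, with a median of 0.045. The members of the list were not tested against other genes. The 3 were Dkc1, Nolc1 and Nop58, which serve small nucleolar RNA particles, at 1.18, 1.12 and 1.10, and all 3 sets of Dkc1 and of Nolc1 had that direction. Tfap4, a transcription factor gene, was higher by 0.91. Odc1, the first enzyme of polyamine synthesis, read 11.76 in Hmhi-MYC-TA, 10.57 in the array labelled Hmhi-Miz1 kd, 11.09 in Hmhi EGF and 11.31 in Hmhi starved, with all 3 sets in agreement on each direction. For Hmhi EGF minus Hmhi starved the list had a median of -0.094 with 20 of 30 genes below 0. For all genes the median was 0.006, with 50.5% above 0. Tfrc, the transferrin receptor, stood apart in that comparison at 1.86 on its brightest set and 0.19 on the least responsive. In the array labelled Hmhi-Miz1 kd 22 of 30 were above Hmhi EGF, beside 52.3% of all genes, with a median of 0.15 and 0 at least 2-fold apart. Of all genes 2.79% were apart there, with a median of 0.018. Shmt2, a mitochondrial enzyme of folate metabolism, had the largest difference of the list there, above Hmhi EGF in all 4 of its sets by 0.47 to 0.76.

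**Figure D4:**
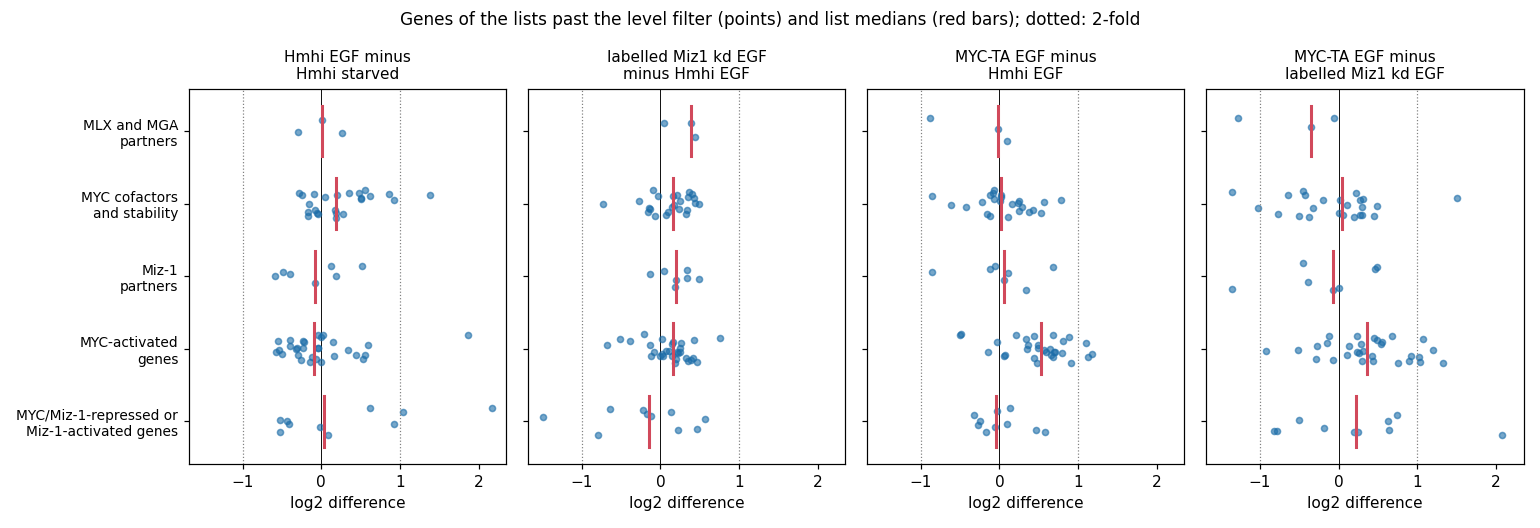
Log2 difference (horizontal axis) of each list gene past the level filter in the 4 comparisons, with the median of each list as a red bar. The MYC-activated genes lie mostly right of 0 in both panels for Hmhi-MYC-TA, with medians of 0.53 and 0.36, and the list of MYC and Miz-1 targets spreads to both sides.

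Genes that MYC represses through Miz-1, or that Miz-1 activates, went both ways. Of 12 listed, 10 passed, and for Hmhi-MYC-TA minus Hmhi EGF 0 of them were 2-fold apart and their median was -0.04. Of all genes 2.95% were apart there, with a median of 0.045, so a count of 0 among so few genes says little. Cdkn1a, the CDK inhibitor p21, read 10.11 in Hmhi-MYC-TA, 9.49 in the array labelled Hmhi-Miz1 kd, 10.29 in Hmhi EGF and 8.12 in Hmhi starved. Against Hmhi starved, Hmhi EGF was higher on both of its sets, by 2.17 and 1.69, and lower in the array labelled Hmhi-Miz1 kd than in Hmhi EGF, by -0.80 and -0.73. Cdkn2b, the CDK inhibitor p15, read 8.49 in Hmhi-MYC-TA, 9.31 in the array labelled Hmhi-Miz1 kd, 8.74 in Hmhi EGF and 9.18 in Hmhi starved. These CDK inhibitor genes thus differed from Hmhi EGF in opposite directions in the array labelled Hmhi-Miz1 kd.

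Ndrg2, a stress-response gene, read 8.80 in Hmhi-MYC-TA, 6.72 in the array labelled Hmhi-Miz1 kd, 8.22 in Hmhi EGF and 7.18 in Hmhi starved. It was the listed gene over 2-fold lower in the array labelled Hmhi-Miz1 kd than in Hmhi EGF, at -1.50. Of all genes 2.5% were at least 2-fold lower there. Cebpa, a differentiation factor, was at -0.65 there. Bcl2, which blocks apoptosis, was higher there in all 5 of its sets, by 0.40 to 0.76. Cth, which encodes cystathionase, the enzyme in the series title, read 8.31 in Hmhi-MYC-TA, 6.20 in the array labelled Hmhi-Miz1 kd, 5.18 in Hmhi EGF and 4.34 in Hmhi starved, so that it was above the array median in Hmhi-MYC-TA and dim in the other 3 arrays.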

How the data were processed

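RNA of 4 mouse melanocyte cultures was hybridized to Affymetrix expression arrays from biotinylated cRNA, per the labels' protocols. The values deposited by the authors run between 2.94 and 15.12 and were read as log2 signals on that ground; the log base, summarization and normalization are not given in the sources used here. Sorted columns lay within 0.004 of each other, so array medians are equal by construction, a change common to all genes would be hidden, and the scale stays an inference. Values were not centred per gene.

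The platform annotation of the arrays named 1 gene for 34945 probe sets, several for 932 and none for 9160, which are unnamed here, beside 64 control sets. Entrez identifiers of 34741 sets matched the RefSeq gene table (GRCm38.p6), and 0 symbols changed. Each of 18193 genes was represented by its brightest set on average, a choice among several for 9010. A comparison used genes whose brighter array reached that array's median. Differences were counted at 2-fold, and no test or p-value was possible with 1 array per condition. Arrays have no read depth, and their number limits the precision. Named genes were the members in every set, up to 4 genes per list and comparison with the largest difference past the filter, Cth, the 3 nearest named protein-coding genes on each side of Mycn, Myc and Zbtb17, and the 5 most similar profiles of members with a range of at least 1; others served as illustration of a list. The members and lists were chosen with earlier results of these data known.

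Alternatives were a common median, quantile normalization, loess with span 0.4, dropping the level filter, raising it to the 75th percentile, averaging all sets of a gene, plain _at sets only and, added after the Mycn sets were seen to disagree, the second brightest set. The steps were tested on simulated data. Python 3.11.15, pandas 2.3.3, numpy 2.4.6, statsmodels 0.14.6 and matplotlib 3.10.9 were used.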

Additional observations from a re-analysis of the deposited data

How the results depend on the processing

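No paired analysis was possible because there was 1 array for each condition; leaving out a replicate was likewise not run. Sorted columns already lay within 0.004 of each other, so a common median and quantile normalization could change little and are weak checks. Under a common median, quantile normalization, loess, no level filter and the filter at the 75th percentile, the number of members 2-fold apart was the same in each of the 4 comparisons. With plain _at sets only it was 2 in place of 3 for Hmhi-MYC-TA minus the array labelled Hmhi-Miz1 kd, because Myc has no such set. With the mean of all probe sets it became 0 for Hmhi-MYC-TA minus Hmhi EGF, since Mxi1 averaged 0.98, and Mycn in the array labelled Hmhi-Miz1 kd minus Hmhi EGF became -1.96. With the second brightest set, chosen after the data were seen, the number was 1 for Hmhi EGF minus Hmhi starved (Mycn, at 1.40), 0 for the array labelled Hmhi-Miz1 kd minus Hmhi EGF (Mycn, at -0.13) and 0 for Hmhi-MYC-TA minus Hmhi EGF (Mxi1, at 0.85). For Hmhi-MYC-TA minus the array labelled Hmhi-Miz1 kd it was 2 in place of 3, with Mxi1 at 1.01 and Myc at -1.01 on its 1 set, while Mycn was at 0.38. Of 32 member differences, 11 changed sign on that set, the largest being Mnt for Hmhi EGF minus Hmhi starved, at 0.30 in place of -0.39. Scaling changed 1 of 40 signs, that of Zbtb17 at -0.01, under loess. Of 20 list medians the filters and set choices each turned 3 or 4, none over 0.144 in size before the change, and scaling 0. After it the largest was -0.212 against 0.037, under the filter at the 75th percentile. It was that of the MYC and Miz-1 target list for Hmhi EGF minus Hmhi starved. The filter at the 75th percentile left 161 genes 2-fold apart in place of 318 for the array labelled Hmhi-Miz1 kd minus Hmhi EGF. It left 1073 in place of 1483 for Hmhi EGF minus Hmhi starved and 231 in place of 340 for Hmhi-MYC-TA minus Hmhi EGF. The array labelled Hmhi-Miz1 kd thus lost the larger share, and the dropped genes lay below that percentile in their brighter array. This filter also turned the median of the MYC and Miz-1 target list for that array to 0.008, against -0.14. Dim sets limit what can be said of Mycl and of Mycn set 1425922_a_at. Mycn set 1417155_at was dim in Hmhi starved and read at or below 7.22 in the other arrays.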
